A study of Mus musculus with 12 samples.

Results

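The 3 DSS+UA colon libraries came from mice that received ursolic acid (UA) only after dextran sulfate sodium (DSS) had been started, and they were compared with the 3 Con libraries of untreated mice across all genes. These 6 libraries were taken by their group labels from 12 in all, and 17658 of the 54532 listed genes passed the filter on low counts and were tested. The 3 DSS libraries served as the reference for injury without the drug: a DSS-type change is a gene that differed between DSS and Con, and the question was which of these changes remained in DSS+UA and which were back at the untreated level. All mice were C57BL/6, 6 weeks old on arrival and kept for 1 week before the experiment. DSS and DSS+UA mice drank 3% (w/v) DSS for 5 days, and DSS+UA mice were gavaged with UA at 200 mg/kg from 3 days after the start of DSS, so that the drug and DSS overlapped. The study's methods give 4 days of UA and its discussion 5 days. Con mice drank no DSS and are labelled untreated, whereas the methods describe a vehicle gavage. No group had UA without DSS, and each group is 3 sequenced colons out of 8 mice. The UA+DSS group, given UA from 1 day before DSS, was not compared. It entered the filter on low counts, the scaling of the libraries and the estimate of the spread.

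DSS damages the epithelial lining of the colon, so that gut bacteria reach the tissue below. Neutrophils and monocytes then enter from the blood, drawn by chemokines such as Cxcl1, Cxcl2 and Cxcl5, and the epithelium answers with acute phase and antimicrobial proteins. Repair involves dividing crypt cells, a return to fetal-type epithelial genes, remodelling of the matrix by proteases and new collagen, and growth of blood vessels. UA is a plant triterpenoid with reported anti-inflammatory activity.

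Total counts were 17647392 to 19498383 in the 9 Con, DSS and DSS+UA libraries. Con 1 stood apart from the other Con libraries: the chi-square per degree of freedom over genes was 149.9 and 143.4 against Con 2 and Con 3, and 49.7 between those 2. A score of colon position, the mean log2 CPM (CPM being the normalised read count scaled by library size) of 5 Hox genes known for expression toward the rectum minus that of 6 known toward the caecum, was 5.52, -3.02 and -1.83 in Con, 3.10, 1.35 and 0.37 in DSS, and 4.12, 4.48 and 5.06 in DSS+UA. Con 1 thus lay above all DSS+UA libraries and the other Con libraries below them. The mean score was 4.33 higher in DSS+UA than in Con (exact permutation test, two-sided, p = 0.4, where the smallest possible p is 0.1). The part of tissue position in the results was not tested, and for many gene lists the count is also given with this score as a covariate and with Con 1 alone as the control. DSS 2 carried far more neutrophil RNA than the other DSS libraries (summed neutrophil markers 21540 CPM against 1054 and 1143 CPM), and only DSS 3 carried abundant pancreatic acinar RNA (21060 CPM against 101 and 35.5 CPM). Mitochondrially encoded genes made up 4.46% to 9.53% of counts in Con, 1.23% to 2.93% in DSS and 2.48% to 3.03% in DSS+UA.

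**Figure D1:**
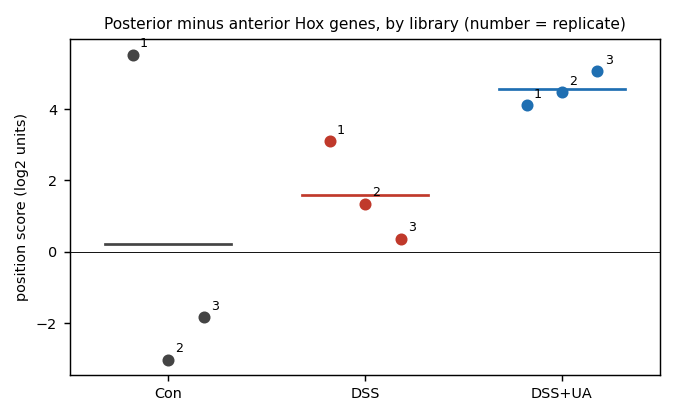
Position score of each library, in log2 units (vertical axis), for Con, DSS and DSS+UA. Points are libraries marked with their replicate number and horizontal lines are group means. Con 1, at 5.52, sits with the DSS+UA libraries, and Con 2 and Con 3 sit below 0.

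In DSS+UA, 3193 genes differed from Con by edgeR's quasi-likelihood test with Benjamini-Hochberg adjustment, 1613 raised and 1580 lowered, that is 18.1% of all tested genes (9.13% raised and 8.95% lowered). In 3118 of them the DSS+UA and Con libraries did not overlap, against 38.9% of all tested genes. DSS alone differed from Con in 4688 genes, 2459 raised (13.9%) and 2229 lowered (12.6%). DSS+UA and DSS differed in 448 genes that were higher in DSS+UA (2.54%) and 883 that were lower (5.0%). Without DSS+UA 3 the count against Con was 1062, without Con 3 it was 1563 and without Con 2 it was 1886. It was 1809 without DSS+UA 1, 1412 with Con 1 alone as the control and 2170 with the position score as a covariate.

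Of the 2459 genes that DSS raised, 858 (34.9%) were also raised in DSS+UA, and 794 of these did not differ from DSS by the test. Their median log2 fold change against Con was 1.03 in DSS and 1.10 in DSS+UA. A further 449 genes (18.3%) were back at the untreated level, defined as lower than in DSS, not different from Con and within 1 log2 unit of it. Their median was 1.55 in DSS and 0.01 in DSS+UA. For 1140 genes (46.4%) the test called neither, and they lay between (median 1.95 in DSS and 0.76 in DSS+UA, 1091 of them still above Con). Another 12 genes were below Con in DSS+UA.

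Of the 2229 genes that DSS lowered, 883 (39.6%) remained low, with medians of -1.61 in DSS and -1.55 in DSS+UA. Another 147 (6.59%) were back at the untreated level, with medians of -0.88 in DSS and 0.03 in DSS+UA. Since that DSS median was itself within 1 log2 unit of Con, the limit did little here and the class rested on the tests. The other 1199 (53.8%) were called neither. DSS+UA and DSS are compared with the same Con libraries here, so an unusual Con value moves both.

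These counts rested on single libraries to different degrees. The 1741 genes that remained in either direction became 693 without DSS+UA 3 and 1543 with the position covariate. The 596 genes that were back became 17 without DSS+UA 3, 93 without DSS+UA 2, 202 without DSS 2 and 121 with the position covariate. This was a larger relative change than for the genes that remained. Genes that DSS had lowered made up 0 of the 17, 0 of the 93, 7 of the 202 and 6 of the 121. With a limit of 0.5 log2 units in place of 1 the genes that were back numbered 476. In 91 of the 596 the DSS+UA and Con libraries did not overlap, against 38.9% of all tested genes. Another class of 282 genes differed in DSS+UA from both Con and DSS in the same direction, 120 raised and 162 lowered. It held 6 genes without DSS+UA 3 and 36 without DSS+UA 2, all of them lowered. It held 513 genes without Con 1 and 48 with the position covariate. Of its lowered genes 144 had not differed between DSS and Con and 12 had been raised by DSS.

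**Figure D2:**
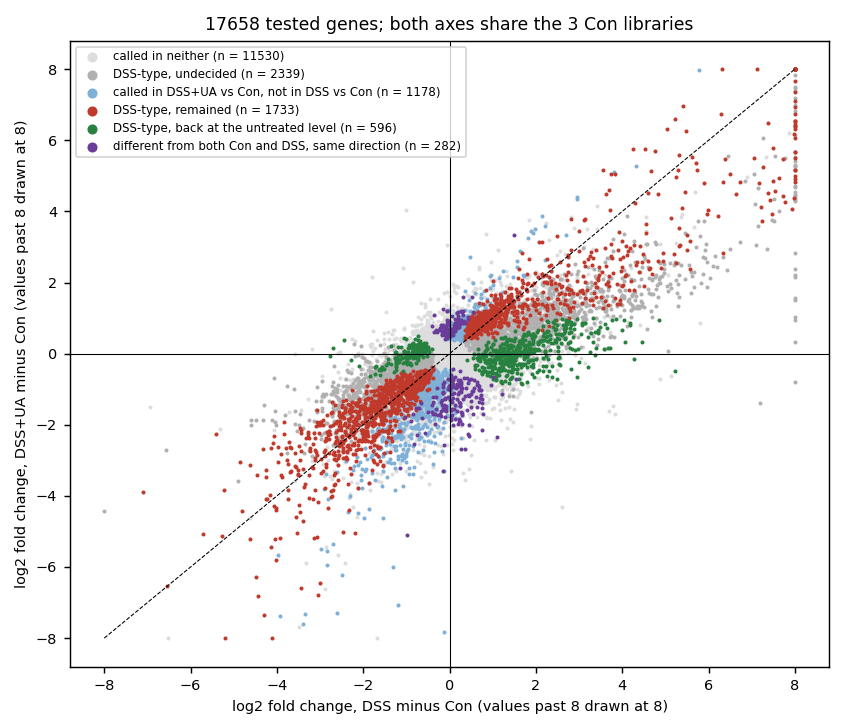
Log2 fold change against Con in DSS (horizontal axis) and in DSS+UA (vertical axis) for 17658 tested genes, with values past 8 drawn at 8 and the dashed line marking equal change. Red genes remained changed and follow the dashed line, green genes (596) were back at the untreated level and lie along 0 on the vertical axis, and purple genes (282) differed from both groups. Red shows 1733 genes because 8 of the 1741 are also in the purple class. Both axes use the same 3 Con libraries.

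Among the most raised genes in DSS+UA, S100a8 (chr3:90668978-90670035, GRCm38), a subunit of the antimicrobial protein calprotectin, measured 0.155, 0.277 and 0 CPM in the Con libraries, 221, 6821 and 317 in DSS and 260.5, 48.8 and 271 in DSS+UA. All DSS+UA libraries lay far above all Con libraries (log2 fold change 10.34 ± 1.99 (SE), adjusted p = 0.00956), DSS+UA 2 was the lowest of the 3, DSS 1 lay within the DSS+UA range, and DSS 3 lay slightly and DSS 2 far above it. The adjusted p of S100a8 was 0.0551 with the position covariate, 0.0577 with limma-voom and 0.113 against Con 1 alone. The difference from DSS did not pass the test (log2 fold change -3.66, adjusted p = 0.106). S100a9 (chr3:90692632-90695721), the other calprotectin subunit, had 2 counts over all Con libraries and 262, 49.2 and 298 CPM in DSS+UA. That is a ratio of 5877 with a 95% exact interval of 1627 to 4.854e+04, which covers counting error only.

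Cxcl2, the chemokine that draws neutrophils through the receptor Cxcr2, had no count in any Con library and 54.8, 12.9 and 101 CPM in DSS+UA. Against a floor of 3 counts over the Con group it was at least 1081-fold higher in DSS+UA. Retnlg, a resistin-like protein of neutrophils, measured 0.0517, 0 and 0.16 CPM in the Con libraries and 62.1, 4.33 and 50.2 in DSS+UA, again with DSS+UA 2 lowest and no overlap. Acod1, which makes itaconate in activated myeloid cells, measured 0.414, 0.166 and 0.107 CPM in the Con libraries and 31.9, 8.54 and 58.3 in DSS+UA. Il1b, a pyrogenic cytokine of myeloid cells, measured 0.517, 0.444 and 1.6 CPM in the Con libraries, 119.9, 3011 and 149.5 in DSS and 68, 77.8 and 170.5 in DSS+UA, and DSS+UA lay above Con in every library (log2 fold change 6.93 ± 1.47 (SE), adjusted p = 0.0132). The adjusted p of Il1b was 0.0502 without Con 2. With the position covariate it was 0.0840 for Il1b, 0.132 for Cxcl2, 0.179 for Acod1 and 0.0951 for Retnlg, and none of these 4 passed against Con 1 alone (0.119 to 0.273). Without DSS+UA 3 the adjusted p was 0.0710 for Cxcl2, 0.0922 for Acod1 and 0.0501 for Retnlg, and the first 2 of these were also lost without DSS+UA 1 or any 1 Con library, Retnlg without Con 2 or Con 3.

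Of 15 neutrophil markers, 11 were raised and none lowered in DSS+UA, against 14 raised in DSS. Their median log2 fold change against Con was 6.40 in DSS+UA and 10.42 in DSS. Without DSS 2 these medians were 6.41 and 7.29. Over all tested genes it was -0.03 in both comparisons. With the 1 member that had no count in Con set at its bound, the medians were 4.83 and 8.70. The summed markers were 120.8, 14.5 and 19.1 CPM in Con, and 1116, 451 and 1125 CPM in DSS+UA. All DSS+UA libraries thus exceeded all Con libraries, and DSS+UA 1 and DSS+UA 3 were near the 1054 and 1143 CPM of DSS 1 and DSS 3. In bulk tissue, fewer cells of a type and less RNA per cell cannot be told apart. The count of 11 became 1 with the position covariate, 2 without Con 3 and 3 without Con 2 or DSS+UA 3. It was 5 without DSS+UA 1 and 7 without Con 1. DESeq2 called 4, and the raised members that it did not call had no adjusted p from it. The median was 7.15 with the covariate and 6.41 against Con 1.

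Chemokines of the CXC family and the granulocyte factors were also raised. Of 13 tested members 9 were raised in DSS+UA (median 3.93) and 12 in DSS (median 6.63), and setting the 2 members without Con counts at their bound left both medians as they were. Cxcl5, which epithelial cells release, measured 1.71, 0.388 and 0.107 CPM in the Con libraries, 67.6, 366 and 181 in DSS and 54.1, 122 and 66 in DSS+UA (log2 fold change 6.75 ± 1.21 (SE), adjusted p = 0.00772). No Con library came near DSS+UA, and the DSS+UA values overlapped those of DSS. The count of 9 became 1 with the position covariate, 2 without Con 3, 3 without Con 2 or DSS+UA 3 and 4 without Con 1. It was 5 without DSS+UA 1, and also 5 with DESeq2, where genes without an adjusted p count as not called. Without DSS 2 the median in DSS was 4.77. Cxcl14, a chemokine of epithelium and stroma, was the single member back at the untreated level (11.6, 8.76 and 11.2 CPM in the Con libraries, 36.2, 42.2 and 50.4 in DSS and 10.3, 19.4 and 18.6 in DSS+UA). Its difference from DSS was lost without DSS+UA 2 (adjusted p = 0.0521) or DSS+UA 3 (0.0929) and with the position covariate (0.0601).

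Acute phase and antimicrobial genes were raised in 8 of 19 tested cases, with a median of 1.51 in DSS+UA and 2.93 in DSS, and 1 gene, Retnla, was lowered. Saa3, a serum amyloid made in inflamed tissue, measured 0.155, 2.33 and 1.66 CPM in the Con libraries, 242, 3281 and 681 in DSS and 178, 55.9 and 155 in DSS+UA (log2 fold change 6.55 ± 1.31 (SE), adjusted p = 0.0110). Every DSS+UA library lay far above every Con library and below every DSS library, but the latter difference did not pass the test (adjusted p = 0.0737). Lcn2, which binds bacterial siderophores, measured 77.9, 7.73 and 62.2 CPM in DSS+UA against 0.983, 0.832 and 1.07 CPM in Con. DSS+UA 2 was low again, as for S100a8, and the call was lost without DSS+UA 1, DSS+UA 3 or any 1 Con library (adjusted p = 0.0727 to 0.0982). Pla2g2a, a secreted phospholipase that kills Gram-positive bacteria, measured 7.19, 8.26 and 8.66 CPM in the Con libraries, 42.4, 20.9 and 38.4 in DSS and 90.1, 61.4 and 61.1 in DSS+UA, so that all DSS+UA libraries exceeded all DSS libraries, although that difference did not pass the test (adjusted p = 0.267). The count of 8 became 0 against Con 1 alone, 3 with the position covariate and 5 without Con 2.

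The genes of interleukin 6 signalling split between both outcomes. Of 14 members 11 were raised in DSS, of which 7 remained raised and 3 were back, with medians of 0.65 in DSS+UA and 1.93 in DSS. Of all genes that DSS raised, 34.9% remained and 18.3% were back. Stat3, the transcription factor downstream of the receptor, measured 98.3, 105 and 118 CPM in the Con libraries, 277, 354 and 279 in DSS and 211, 195 and 213 in DSS+UA (log2 fold change 0.95 ± 0.15 (SE), adjusted p = 0.00551). DSS+UA lay between the groups and overlapped neither. Il11, a stromal cytokine of the family, measured 0.517, 0.277 and 0.107 CPM in the Con libraries, 43.1, 37.9 and 85 in DSS and 6.37, 4.95 and 15.7 in DSS+UA, which was raised against Con and lower than in DSS (adjusted p = 0.0356). The shared receptor Il6st was back at 127, 70 and 96.1 CPM against 66.7, 63.6 and 118 CPM in Con and 309, 223 and 288 CPM in DSS. Its Con 3 value exceeded 2 of the DSS+UA values. The 7 that remained became 1 against Con 1 alone and 3 without Con 2 or Con 3 or with the position covariate. The 3 that were back became 0 without DSS+UA 2 or DSS+UA 3 or with the position covariate and 1 without DSS+UA 1.

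Among the most raised genes outside the neutrophil list, Clca4b (chr3:144910921-144932529), a member of the family of calcium-activated chloride channel regulators, measured 5.12, 3.66 and 3.8 CPM in the Con libraries, 488, 232 and 274 in DSS and 667, 1676 and 978 in DSS+UA, with every DSS+UA library above every DSS library and DSS above Con (log2 fold change 8.04 ± 1.17 (SE), adjusted p = 0.00519 against Con, and adjusted p = 0.0616 against Con 1 alone). The DSS+UA and DSS groups did not differ by the test (adjusted p = 0.211). Krt90, a type II keratin, had 3 counts over all Con libraries and 45.1, 19.6 and 24.7 CPM in DSS+UA (count ratio 568, 95% exact interval 194 to 2759). It passed the test under every alternative tried for single genes. This phrase leaves out the test against a 2-fold change, which was counted over all genes only. It also leaves out any setting whose filter removed the gene, as the minimum of 10 counts in every library removed Krt90.

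**Figure D3:**
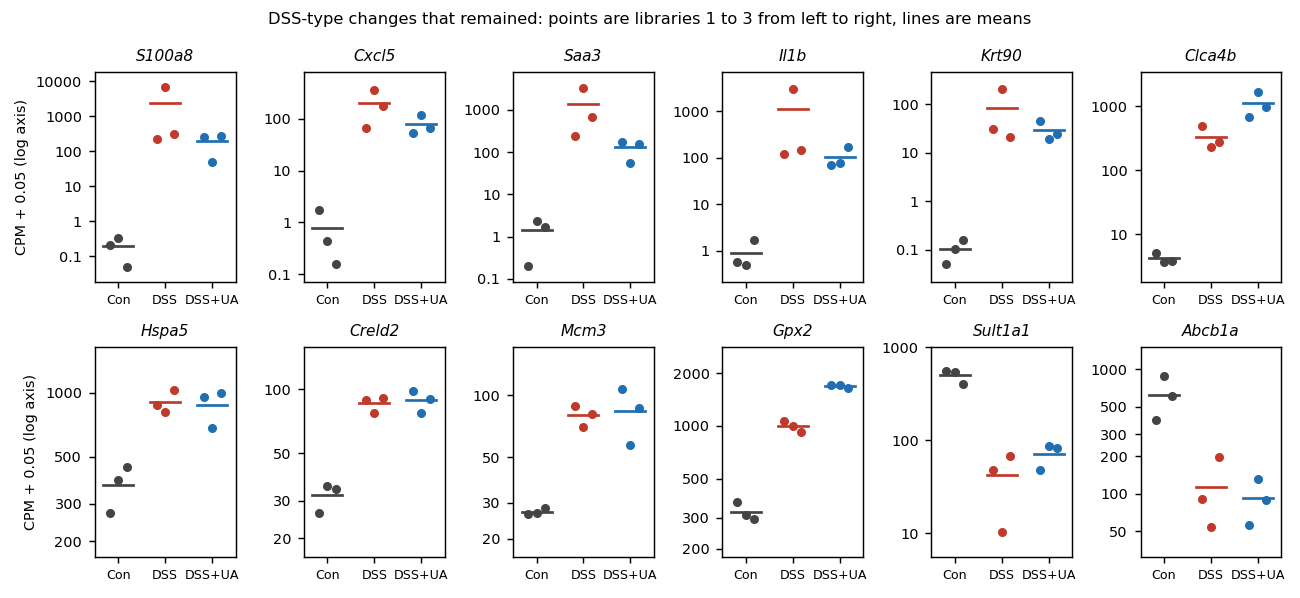
CPM of 12 DSS-type genes that remained changed in DSS+UA, on log axes after adding 0.05 CPM. Points are libraries 1 to 3 from left to right and lines are group means. Con is separate from DSS+UA in every panel, the neutrophil and acute phase genes S100a8, Saa3 and Il1b scatter most, with DSS 2 far above the rest, and Hspa5, Creld2, Mcm3 and Gpx2 are tight within groups.

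Genes of the endoplasmic reticulum (ER) stress response were raised in DSS and in DSS+UA. The ER folds secreted proteins, and when unfolded protein builds up the sensors Atf6 and Ire1 drive chaperone genes, partly through a DNA element in their promoters. Of 18 members 10 were raised in DSS+UA and none lowered, with 8 of them also raised in DSS. The median was 0.72 in DSS+UA and 0.67 in DSS. The count was also 10 with the position covariate (median 0.97), 8 with Con 1 alone as the control, and became 6 without DSS+UA 3. No member differed between DSS+UA and DSS.

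The promoters of 3 of these genes are shown because they carry the ER stress response element, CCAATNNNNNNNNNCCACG, whose ends are in capitals in whichever strand they lie (CCAAT and CCACG, or CGTGG and ATTGG on the other strand). Each run is the 250 bases before the gene's RefSeq start, 5′ to 3′ along the gene, from GRCm38.p6 at chr2:34771840-34772089 (plus strand) for Hspa5, chr8:84846932-84847181 (minus strand) for Calr and chr15:88819396-88819645 (plus strand) for Creld2.
Hspa5: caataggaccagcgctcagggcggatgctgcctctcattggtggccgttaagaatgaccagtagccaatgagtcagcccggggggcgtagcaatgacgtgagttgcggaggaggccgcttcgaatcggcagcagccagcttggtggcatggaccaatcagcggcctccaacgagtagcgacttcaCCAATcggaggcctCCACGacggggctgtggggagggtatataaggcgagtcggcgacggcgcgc
Calr: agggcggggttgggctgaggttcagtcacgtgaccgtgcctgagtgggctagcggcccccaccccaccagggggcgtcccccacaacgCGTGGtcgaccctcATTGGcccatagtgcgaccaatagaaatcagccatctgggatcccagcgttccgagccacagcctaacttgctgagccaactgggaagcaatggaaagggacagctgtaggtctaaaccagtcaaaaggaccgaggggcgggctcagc
Creld2: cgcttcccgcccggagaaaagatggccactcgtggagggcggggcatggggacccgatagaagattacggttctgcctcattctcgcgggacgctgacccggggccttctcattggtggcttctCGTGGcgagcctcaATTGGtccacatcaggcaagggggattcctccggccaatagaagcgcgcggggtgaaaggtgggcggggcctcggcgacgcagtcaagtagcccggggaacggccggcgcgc
The element was in 37 of 32851 promoters searched on both strands (0.113%). It was found upstream of 6 of the 17 members with a promoter in the table, namely Hspa5, Hsp90b1, Dnajc3, Pdia6, Calr and Creld2, and 5 of these 6 were raised in DSS+UA (all but Dnajc3). Of the 11 members without a match, 4 were raised. It began 65 bases before the start in Hspa5, 162 in Calr and 126 in Creld2. A match is a description of the letters and not a measured binding site.

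Hspa5, the main ER chaperone BiP, measured 271, 387 and 449 CPM in the Con libraries, 875, 815 and 1026 in DSS and 957, 679 and 992 in DSS+UA (log2 fold change 1.25 ± 0.25 (SE), adjusted p = 0.00992). Creld2, a secreted ER stress protein, measured 26.2, 35 and 34.1 CPM in the Con libraries, 88.8, 77.4 and 90.5 in DSS and 98.3, 77.1 and 90.2 in DSS+UA (log2 fold change 1.48 ± 0.16 (SE), adjusted p = 0.00225), and passed the test under every alternative tried. Calr, the calcium-binding chaperone calreticulin, measured 337, 460 and 455 CPM in the Con libraries, 814, 608 and 966 in DSS and 983, 911 and 1065 in DSS+UA (log2 fold change 1.24 ± 0.23 (SE), adjusted p = 0.00807). In all 3 genes every DSS+UA library exceeded every Con library, and the DSS+UA and DSS groups overlapped. Sdf2l1 (log2 fold change 1.45 ± 0.23) and Manf (1.21 ± 0.17), a chaperone cofactor and a secreted ER factor, were raised by similar amounts. Trib3, a pseudokinase raised in DSS (log2 fold change 1.52), measured 1.16, 2.1 and 1.66 in DSS+UA and 0.983, 1.55 and 0.749 CPM in Con and was not called.

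Cell cycle and DNA replication genes were the list with the most raised members, 15 of 25, against 11 in DSS. The median was 0.99 in DSS+UA and 0.63 in DSS, and no member was lowered. Rrm2, the ribonucleotide reductase subunit that supplies DNA precursors, measured 22.2, 20.8 and 19.9 CPM in the Con libraries, 82.2, 70.9 and 68 in DSS and 113, 51.8 and 86.5 in DSS+UA (log2 fold change 2.0 ± 0.29 (SE), adjusted p = 0.00490). Mcm3, part of the replicative helicase, measured 26.2, 26.7 and 28.3 CPM in the Con libraries, 88.3, 70.3 and 80.6 in DSS and 107, 57.2 and 86.6 in DSS+UA (log2 fold change 1.63 ± 0.26 (SE), adjusted p = 0.00528). Neither overlapped Con, and DSS+UA 2 was the lowest of the DSS+UA libraries in both. Of the 6 helicase subunits Mcm2 to Mcm7, all were raised in both groups, by 1.07 to 1.63 in DSS+UA. Plk1, a mitotic kinase, measured 121, 80.2 and 96.7 in DSS+UA and 117, 101 and 102 CPM in Con, and was called only in DSS, where it was lower than in Con. The count was 12 with the position covariate and 9 against Con 1 alone.

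Glycolysis was raised in 7 of 20 members (median 0.89 in DSS+UA and 0.59 in DSS). Pgk1, phosphoglycerate kinase, measured 253, 347 and 294 CPM in the Con libraries, 669, 615 and 570.5 in DSS and 894, 908 and 989 in DSS+UA (log2 fold change 1.64 ± 0.20 (SE), adjusted p = 0.00318), and DSS+UA lay above both groups in every library. Of its transcript's 50-base stretches 53.9% also occur in other genes, so its level is uncertain. Eno1, enolase, measured 271, 408 and 334 CPM in the Con libraries and 904, 853 and 914 in DSS+UA (log2 fold change 1.40 ± 0.23 (SE), adjusted p = 0.00551). Tpi1, triosephosphate isomerase, differed from both groups: it measured 352, 596 and 473 CPM in the Con libraries, 532, 483 and 539 in DSS and 819.5, 998 and 952 in DSS+UA, without overlap. The count of 7 became 12 without DSS 2.

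Antioxidant genes were raised in 6 of 19 cases, with medians of 0.75 in DSS+UA and 0.54 in DSS. Gpx2, the glutathione peroxidase of gut epithelium, measured 368, 312 and 294 CPM in the Con libraries, 1067, 995 and 926 in DSS and 1707, 1722 and 1640 in DSS+UA (log2 fold change 2.38 ± 0.36 (SE), adjusted p = 0.00504). The 3 groups did not overlap, with DSS+UA highest, yet DSS+UA and DSS did not differ by the test (adjusted p = 0.159). Hmox1, heme oxygenase, measured 3.57, 3.11 and 6.1 CPM in the Con libraries, 52.4, 284 and 48.3 in DSS and 19.1, 28 and 20.5 in DSS+UA, so it remained raised but was lower than in DSS (adjusted p = 0.0410). Its call against Con was lost without any 1 Con or DSS+UA library (0.0544 to 0.0876). The count of 6 became 2 without DSS+UA 2 and 3 without Con 3 or against Con 1 alone.

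Genes of fetal-like repair epithelium were raised in 9 of 19 members, with a median of 1.93 in DSS+UA and 1.73 in DSS. Ly6a, the marker Sca-1 of regenerating crypts, measured 230.5, 426 and 366 CPM in the Con libraries, 901, 556 and 606 in DSS and 1008, 1964 and 1233 in DSS+UA (log2 fold change 2.04 ± 0.33 (SE), adjusted p = 0.00530). DSS+UA exceeded DSS in every library, with an adjusted p of 0.0657 for that difference. Anxa1, an annexin induced in healing epithelium, measured 220.2, 232 and 201 CPM in the Con libraries, 454, 1115 and 399 in DSS and 649.6, 598 and 640 in DSS+UA (log2 fold change 1.53 ± 0.39 (SE), adjusted p = 0.0243). The stromal and epithelial alarmin Il33 remained raised at 24.2, 9.71 and 25.9 CPM, against 75.4, 91.9 and 89.8 in DSS and 9, 2.66 and 4.06 CPM in Con, and the epidermal growth factor ligand Ereg at 51.3, 23.9 and 40.2 CPM, against 174, 148 and 315 CPM and 5.28, 7.76 and 11.6 CPM. Both were lower than in DSS without overlap. Leaving out Con 2, Con 3, DSS+UA 1 or DSS+UA 3 ended the calls of Anxa1 (0.0553 to 0.0740) and Il33 (0.0537 to 0.0717). The count of 9 raised became 1 against Con 1 alone, 3 without Con 3 or with the position covariate and 4 without Con 2 or DSS+UA 3.

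Of 30 genes of xenobiotic metabolism 9 were lowered and 2 raised in DSS+UA (median -1.16), against 14 lowered in DSS (median -1.31). Cyp2c55 (chr19:39007019-39042693), a cytochrome P450 of the colon, measured 307, 2784 and 1458 CPM in the Con libraries, 39.6, 14.9 and 367 in DSS and 8.27, 19.4 and 19.6 in DSS+UA (log2 fold change -6.59 ± 1.32 (SE), adjusted p = 0.0113). DSS+UA did not overlap Con, but Con 1 was the lowest Con library, and with Con 1 alone as the control the adjusted p was 0.0768. Sult1a1, a phenol sulfotransferase, measured 552, 538 and 405 CPM in the Con libraries, 47.9, 10.1 and 66.8 in DSS and 47.3, 86 and 82 in DSS+UA (log2 fold change -2.80 ± 0.58 (SE), adjusted p = 0.0123), and Abcb1a, the drug efflux pump P-glycoprotein, 389, 879 and 612 CPM in the Con libraries, 90.1, 53.5 and 196 in DSS and 55.8, 131 and 88.5 in DSS+UA (log2 fold change -2.77 ± 0.55 (SE), adjusted p = 0.00992). Both were low in every DSS and DSS+UA library, below every Con library. Sult1b1, a related sulfotransferase, was back at 126, 241 and 221 CPM against 150.3, 238 and 176 CPM in Con and 90, 47.4 and 103 CPM in DSS. Its difference from DSS was lost without DSS 1, DSS 2, DSS+UA 2 or DSS+UA 3 (adjusted p = 0.0518 to 0.138). It was also lost with the position covariate (0.0640) and with only the libraries compared (0.106). The 9 lowered members became 1 against Con 1 alone and 5 without Con 2, DSS+UA 1 or DSS+UA 3 or with the position covariate, and the median was -0.47 with the covariate.

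The other most lowered genes had several roles. Adra2a, an adrenergic receptor, measured 3.98, 101 and 61.2 CPM in the Con libraries and 2.95, 1.67 and 2.72 in DSS+UA. It was not called in DSS, and its adjusted p of 0.0186 became 0.647 against Con 1 alone, 0.0537 without Con 2 and 0.0581 to 0.0697 without 1 of the DSS+UA libraries. Hsd3b2, a steroid dehydrogenase, and Arhgap20, a GTPase-activating protein, were lowered with log2 fold changes of -4.08 and -4.04, but neither passed against Con 1 alone (log2 fold changes -1.88 and -1.24, adjusted p = 0.291 and 0.289) or with the position covariate (adjusted p = 0.118 and 0.0656). Hsd3b2 was also lost without Con 2, Con 3, DSS+UA 1 or DSS+UA 3 (0.0531 to 0.0855) and Arhgap20 with limma-voom (0.0697). By contrast, Pbld1, a protein with a phenazine biosynthesis-like domain, measured 8.84, 13.5 and 11 CPM in the Con libraries, 0.337, 4.31 and 1.32 in DSS and 0.211, 0.247 and 0.554 in DSS+UA (log2 fold change -5.01 ± 0.84 (SE), adjusted p = 0.00573), and Vsig2, an immunoglobulin-domain protein, 6.31, 23.3 and 21.3 CPM in the Con libraries, 2.45, 2.1 and 2.69 in DSS and 1.11, 0.866 and 0.499 in DSS+UA (log2 fold change -4.35 ± 0.49 (SE), adjusted p = 0.00275). Neither overlapped Con in DSS+UA, and both passed the test under every alternative whose filter on counts kept them.

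Tuft cell markers were lowered in 4 of 7 tested members (median -1.40 in DSS+UA and -0.26 in DSS). Tuft cells are the chemosensory cells of the epithelium. Trpm5, their cation channel, measured 4.29, 18.5 and 13.2 CPM in the Con libraries, 1.4, 1.7 and 1.22 in DSS and 0.421, 0.495 and 1.05 in DSS+UA (log2 fold change -4.17 ± 0.54 (SE), adjusted p = 0.00366). Sh2d6, an adaptor protein of these cells, measured 3.93, 8.54 and 7.22 CPM in the Con libraries, 0.385, 0.852 and 0.423 in DSS and 0.263, 0.433 and 0.111 in DSS+UA (log2 fold change -4.59 ± 0.52 (SE), adjusted p = 0.00275). In both genes DSS+UA fell below every Con library, Con 1 being the lowest of these, and Pou2f3, the factor that specifies the lineage, had at most 0.0619 CPM in DSS+UA. Dclk1, a kinase of tuft cells and other cells, differed from both groups, at 10.1, 6.74 and 7.04 CPM in DSS+UA, 27.5, 20.5 and 26.5 in DSS and 9.67, 25.9 and 27.6 CPM in Con. Its DSS+UA 1 value exceeded Con 1, and its call was lost without Con 2, Con 3, DSS+UA 2 or DSS+UA 3 (adjusted p = 0.0678 to 0.0841). The 4 lowered became 2 against Con 1 alone.

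Pck1, which makes phosphoenolpyruvate for gluconeogenesis, measured 166, 150.3 and 161 CPM in the Con libraries, 18.2, 45.8 and 49.7 in DSS and 17.7, 44.1 and 27 in DSS+UA (log2 fold change -2.43 ± 0.40 (SE), adjusted p = 0.00573). Insr, the insulin receptor, measured 126, 119 and 114 CPM in the Con libraries, 52, 65.2 and 72.6 in DSS and 43, 37.3 and 45.6 in DSS+UA (log2 fold change -1.51 ± 0.18 (SE), adjusted p = 0.00297). DSS+UA lay below every Con library in both, and in Insr also below every DSS library, where the difference had an adjusted p of 0.0589. These 2 genes, with Foxo4 and Ppargc1b, were the 4 lowered members among 25 of the AMPK and FoxO list, in which none was raised (8.95% of all tested genes were lowered). The 4 became 2 without Con 3, DSS 1, DSS+UA 1, DSS+UA 2 or DSS+UA 3, with the position covariate or against Con 1 alone and 7 with DESeq2.

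Markers of smooth muscle and pacemaker cells were lowered in 7 of 15 members in DSS+UA and in 2 in DSS, with medians of -1.44 and -0.80. Myh11, the smooth muscle myosin, measured 326, 269.8 and 969 CPM in the Con libraries, 461, 160.5 and 276 in DSS and 140.2, 134 and 102 in DSS+UA (log2 fold change -2.06 ± 0.50 (SE), adjusted p = 0.0199), and Con 3 was the highest of all libraries. Without it the adjusted p was 0.0619, and without 1 of the DSS+UA libraries 0.0536 to 0.0797. The summed markers were 1862, 1763 and 4915 CPM in Con and 925, 1324 and 798 CPM in DSS+UA. Kit, the receptor of pacemaker cells and mast cells, measured 42, 89.7 and 113 CPM in the Con libraries, 22.9, 43.4 and 39.7 in DSS and 19.5, 18.9 and 15.6 in DSS+UA (log2 fold change -2.18 ± 0.35 (SE), adjusted p = 0.00528). How much muscle layer each piece of tissue held was not tested. The 7 lowered became 0 against Con 1 alone, 1 without DSS+UA 3 or with the position covariate, 2 without Con 3, 4 without DSS+UA 1 or DSS+UA 2 and 11 with DESeq2.

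Of 21 collagens 13 were raised in DSS, and in DSS+UA 7 of these were back and 1 remained. Col4a5 and Col8a1 were lower than in Con. The median was 1.56 in DSS and 0.06 in DSS+UA. Col4a1 (chr8:11198423-11312826), a chain of basement membrane collagen, measured 119, 148 and 198 CPM in the Con libraries, 516, 919 and 1151 in DSS and 188, 179 and 220.1 in DSS+UA. DSS+UA overlapped Con (log2 fold change 0.33 ± 0.36 (SE), adjusted p = 0.529) and lay below every DSS library (log2 fold change -2.14, adjusted p = 0.0153). Col4a2, which pairs with it, followed at 109, 104 and 134 CPM against 66.4, 84.5 and 129 CPM in Con and 305, 484 and 635 CPM in DSS. The fibrillar collagens Col1a1, Col1a2 and Col3a1 were raised in DSS and close to Con in DSS+UA (0.63, 0.29 and 0.06), but their difference from DSS did not pass the test (adjusted p = 0.0921, 0.0920 and 0.0762), so they count as undecided. Col18a1, whose fragment endostatin limits vessel growth, was the collagen that remained, at 139, 119 and 151 CPM against 33.8, 25.9 and 50 CPM in Con. The 7 that were back became 0 without DSS+UA 3, 1 without DSS+UA 2 or with the position covariate, 3 without DSS 2 or DSS+UA 1, 4 without Con 2 or DSS 3 or against Con 1 alone and 14 with DESeq2.

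Laminins, integrins and other matrix genes made a list of 31 members: 16 were raised in DSS, of which 11 were back and 3 remained, with medians of 1.31 in DSS and -0.0019 in DSS+UA. Lamb1, a laminin chain, measured 90.2, 82.8 and 84.7 CPM in the Con libraries, 195, 219 and 250.2 in DSS and 64.2, 93.2 and 75.2 in DSS+UA (DSS+UA against DSS -1.51, adjusted p = 0.00386). Its DSS+UA values spanned the Con values. Fn1, Tnc, Lamc1 and Itga5, that is fibronectin, tenascin, a laminin chain and the fibronectin receptor subunit, were also back. Lama1, a laminin chain of embryonic tissue, and Spp1, osteopontin, were among those that remained raised. The 11 became 1 without DSS+UA 3, 3 without DSS+UA 2 or with the position covariate, 4 without DSS 2 or DSS+UA 1 or against Con 1 alone and 6 without Con 2, and the 3 that remained became 0 without Con 1, Con 2 or DSS+UA 3 or against Con 1 alone and 1 without Con 3 or DSS+UA 1 or with the position covariate. The medians were 0.09 with that covariate and 0.27 against Con 1 alone.

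TGF-beta and activin genes were raised in 13 of 27 members in DSS, and 8 of these were back (medians 0.42 in DSS and -0.27 in DSS+UA). Thbs1, thrombospondin, which activates latent TGF-beta, measured 33.1, 90.2 and 101 CPM in the Con libraries, 384, 1380 and 590.4 in DSS and 109.8, 41 and 98.5 in DSS+UA. DSS+UA overlapped Con and lay below every DSS library (adjusted p = 0.0193). Tgfb1 itself remained raised, at 36.6, 42.7 and 34 CPM against 20.7, 15.5 and 21 CPM in Con and 78, 113 and 56.4 CPM in DSS. Its DSS+UA values lay between the other groups without overlap, and its call was lost without Con 2, Con 3 or any 1 DSS+UA library (0.0616 to 0.0917), whereas the receptors Tgfbr1, Tgfbr2 and Tgfbr3 were back. The 8 became 0 without DSS+UA 3, 3 without DSS+UA 2 or with the position covariate, 4 without DSS+UA 1 and 5 without DSS 2.

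Of 24 matrix proteases and inhibitors 21 were raised in DSS, of which 8 remained raised and 6 were back. Of all genes that DSS raised, 34.9% remained and 18.3% were back. The list medians were 4.23 in DSS and 1.75 in DSS+UA. Adamts4, which cleaves aggrecan, measured 0.724, 0.832 and 1.55 CPM in the Con libraries, 122, 48.7 and 80.8 in DSS and 8.27, 5.63 and 8.21 in DSS+UA (log2 fold change 2.82 ± 0.49 (SE), adjusted p = 0.00641 against Con, -3.50 against DSS with adjusted p = 0.00645). Its DSS+UA values were above Con and below DSS without overlap. Mmp2, Timp2 and Timp3, a gelatinase and 2 inhibitors, were back, while Mmp9 and Timp1 remained raised. The 8 that remained became 1 without Con 2, with the position covariate or against Con 1 alone, 2 without Con 3, DSS+UA 1 or DSS+UA 3 and 3 without Con 1. The 6 that were back became 0 without DSS+UA 3 or with the position covariate, 2 without DSS+UA 1 or DSS+UA 2 and 3 without Con 2 or DSS 2 or against Con 1 alone.

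Single genes of macrophages and stroma were among those raised most in DSS and back in DSS+UA. Cd163, the hemoglobin scavenger receptor of resident macrophages, measured 7.14, 1.33 and 6.84 CPM in the Con libraries, 125, 15.3 and 62.4 in DSS and 5.32, 5.63 and 6.26 in DSS+UA. DSS+UA lay within the range of Con and below every DSS library (adjusted p = 0.0261, and 0.0576 to 0.107 without 1 of the DSS+UA libraries). Dusp1, a phosphatase that ends MAP kinase signals, measured 18, 23.8 and 23.9 CPM in the Con libraries, 137, 934 and 119.7 in DSS and 32.2, 43.8 and 43.5 in DSS+UA, so it counts as back although every DSS+UA library was above every Con library (log2 fold change 0.86 ± 0.65 (SE), adjusted p = 0.359). Slit3, a guidance protein, measured 5.69, 2.83 and 9.57 CPM in the Con libraries, 85.9, 35.6 and 124 in DSS and 11.4, 10.9 and 12.7 in DSS+UA, also a little above Con in every library. Without DSS+UA 1, DSS+UA 2 or DSS+UA 3 the difference of Dusp1 from DSS had an adjusted p of 0.0606, 0.0895 and 0.108, and that of Slit3 was lost without DSS+UA 2 (0.0778) or DSS+UA 3 (0.0975). Cd33, a lectin of myeloid cells, Pygl, glycogen phosphorylase, and Snai1, a factor of epithelial to mesenchymal change, were raised in DSS by 4.06, 3.66 and 3.60 and measured 0.33, 0.15 and 0.84 in DSS+UA. These differences from DSS were lost without any 1 DSS+UA library (0.0727 to 0.144), with DSS 2 far the highest library for all 3. Pdgfra, the platelet-derived growth factor receptor of fibroblasts, measured 65.8, 49.9 and 81.9 CPM in the Con libraries, 154, 169 and 216 in DSS and 47.6, 53.7 and 49.8 in DSS+UA and differed from DSS under every alternative tried (adjusted p = 0.00387).

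Macrophage markers as a list were raised in 16 of 20 members in DSS and 4 in DSS+UA, with 2 back and medians of 2.27 and 1.24. The summed markers were 600, 295 and 655 CPM in Con, 3061, 4804 and 1889 in DSS and 698, 1817 and 866 CPM in DSS+UA. DSS+UA 2 stood well above the other DSS+UA libraries, and without it the median in DSS+UA was 0.50. The 4 raised became 0 without Con 3, with the position covariate or against Con 1 alone, 2 without Con 1, Con 2 or DSS+UA 3 and 7 without DSS 2. C1qa, a complement subunit of macrophages, measured 59.5, 237 and 78.8 in DSS+UA and 54.2, 22.7 and 62.4 CPM in Con, so that DSS+UA 2 stood out and DSS+UA 1 lay within the Con range. C3, the central complement protein, remained raised at 189.6, 172 and 129 CPM against 38.5, 15 and 27.6 CPM in Con and 826, 641 and 842 CPM in DSS (log2 fold change 2.60 ± 0.38 (SE), adjusted p = 0.00504).

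Of 41 nuclear subunits of oxidative phosphorylation 14 were lowered in DSS, and 12 of these were back. The list medians were -0.46 in DSS and 0.34 in DSS+UA. The DSS median was itself within 1 log2 unit of Con, so that limit did little here. No subunit differed between DSS+UA and Con, where 38 of 41 had a positive log2 fold change. Cox7a2, of cytochrome oxidase, measured 257, 248 and 200.1 CPM in the Con libraries, 155, 102 and 147 in DSS and 212, 437 and 292 in DSS+UA (DSS+UA against DSS 1.22, adjusted p = 0.0267). DSS+UA 2 was the highest of all libraries and DSS 2 the lowest, and the 12 became 0 without Con 2, DSS 2, DSS+UA 2 or DSS+UA 3 or with the position covariate, 2 without DSS 1 or against Con 1 alone, 5 without Con 1 and 6 without DSS 3. Cox7a1, a muscle-type subunit, was the member lowered most in DSS (-2.10) and measured -0.36 in DSS+UA.

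Muc3, a mucin of the apical membrane, measured 2946, 1683 and 1317 CPM in the Con libraries, 603, 428 and 628 in DSS and 1372, 1264 and 1243 in DSS+UA. Every DSS+UA library lay above every DSS library and near the lowest Con library (log2 fold change -0.62 ± 0.31 (SE), adjusted p = 0.171 against Con, adjusted p = 0.0412 against DSS). The latter call was lost without any 1 DSS or DSS+UA library (0.0525 to 0.120) or without Con 2 (0.0521). Tight junction genes were lowered in 7 of 19 members in DSS and in none in DSS+UA, and Cldn3, Tjp3 and Marveld2 were back (list medians -0.66 and 0.01). Marveld2, tricellulin, measured 47.1, 54.2 and 46.5 CPM in the Con libraries, 21.2, 21.2 and 29.5 in DSS and 37.5, 44.2 and 44.1 in DSS+UA, so that DSS+UA lay above every DSS library and slightly below every Con library. Pdzd3, a scaffold of brush border transporters, and Hgfac, the activator of hepatocyte growth factor, were back at -0.37 and -0.58 from -1.73 and -1.73, which did not hold without DSS 2, DSS+UA 2 or DSS+UA 3 (0.0671 to 0.177). Gsdmc4, a gasdermin, was back at 165, 461 and 512 CPM against 627, 361 and 313 CPM in Con, with DSS+UA 1 close to the DSS values, and Tmem254c showed the same split at 1.11, 8.35 and 15.6 CPM. Gsdmc4 shares 39.0% of its 50-base stretches with other genes and Tmem254c all of them, so the counts of both are uncertain. Both lost their difference from DSS without DSS 2, DSS 3, DSS+UA 2, DSS+UA 3, Con 2 or Con 3 (0.0554 to 0.153). The 3 junction genes that were back became 0 without DSS 2, DSS+UA 2 or DSS+UA 3, 1 without Con 2 or with the position covariate, 6 with DESeq2 and 7 without DSS 3.

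**Figure D4:**
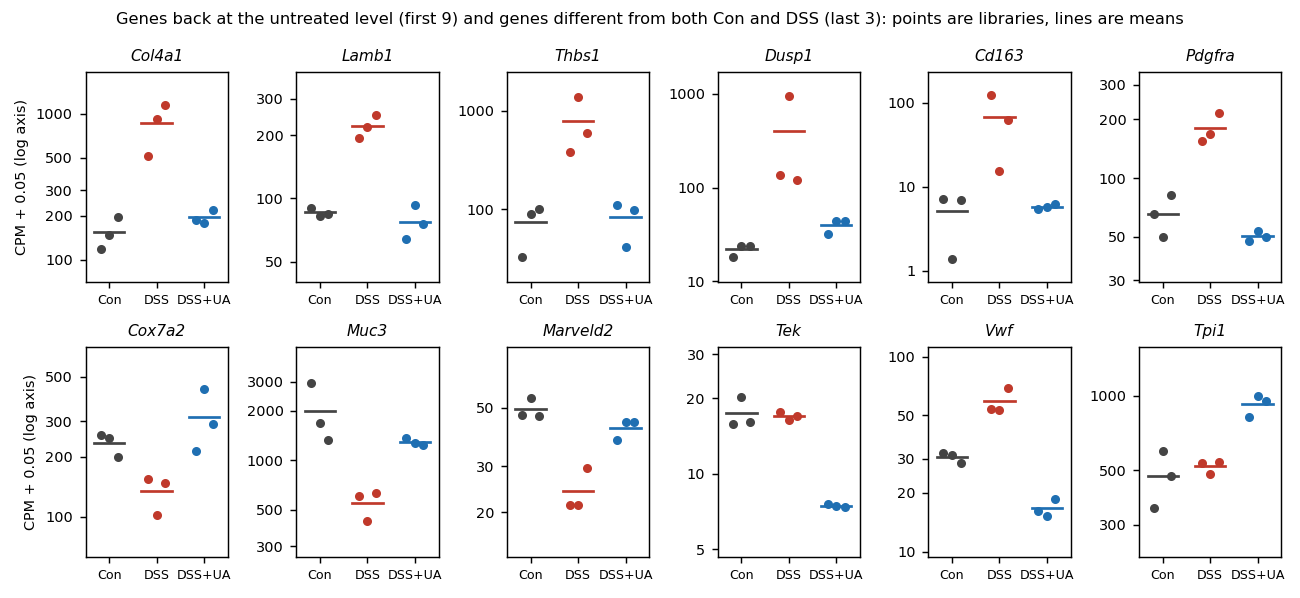
CPM of 9 genes that were back at the untreated level in DSS+UA (first 9 panels) and of 3 that differed from both Con and DSS (Tek, Vwf and Tpi1), on log axes after adding 0.05 CPM. Points are libraries 1 to 3 from left to right and lines are group means. Col4a1, Lamb1, Thbs1 and Pdgfra in DSS+UA fall to the Con level while all DSS libraries are above it, and Tek and Vwf fall below Con.

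Endothelial markers lay below the untreated level in DSS+UA when summed. Of 17 members 11 were raised in DSS, and in DSS+UA 4 remained raised, 5 were lower than in both Con and DSS, and 6 were back. The median was 1.14 in DSS and -0.68 in DSS+UA, and all 14 members that differed between DSS+UA and DSS were lower in DSS+UA. The summed markers were 376, 441 and 383 CPM in Con, 826, 1025 and 828 in DSS and 289, 283 and 286 CPM in DSS+UA. Every DSS+UA library was thus below every Con library.

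Tek, the angiopoietin receptor (chr4:94739289-94874976), measured 15.8, 20.3 and 16 CPM in the Con libraries, 17.7, 16.3 and 17 in DSS and 7.53, 7.42 and 7.32 in DSS+UA (log2 fold change -1.23 ± 0.17 (SE), adjusted p = 0.00447). Vwf, which endothelium stores for platelet adhesion (chr6:125546774-125686679), measured 32, 31.1 and 28.4 CPM in the Con libraries, 54, 53.3 and 69.2 in DSS and 16.1, 15.2 and 18.6 in DSS+UA (log2 fold change -0.88 ± 0.16 (SE), adjusted p = 0.00722). Con and DSS did not separate for Tek, and for Vwf the order was DSS, Con and DSS+UA without overlap. Both passed the test against Con under every alternative tried. Kdr, the main receptor for vascular endothelial growth factor, measured 23.3, 47.6 and 37.4 CPM in the Con libraries, 28.6, 40.6 and 42.5 in DSS and 12.3, 9.84 and 14.2 in DSS+UA, with an adjusted p of 0.0132 that became 0.0787 with the position covariate and 0.180 against Con 1 alone. Emcn and Plvap, a sialomucin and a protein of fenestrated vessels, were also lower than in both groups, while the adhesion molecules Vcam1 and Selp, which inflamed endothelium displays to leukocytes, remained raised at 38.1, 39.8 and 35.4 CPM and 7.11, 2.35 and 7.65 CPM against 15.2, 9.48 and 15.2 CPM and 1.29, 0.998 and 0.963 CPM in Con. Vegfa, the growth factor for Kdr, measured 65.5, 66.1 and 82.9 CPM in the Con libraries, 35.1, 76.5 and 47.9 in DSS and 39.3, 31.6 and 29.6 in DSS+UA and was lowered (log2 fold change -1.09 ± 0.25 (SE), adjusted p = 0.0155, and adjusted p = 0.0677 without DSS+UA 3 and 0.0536 without Con 3). The calls of Emcn, Plvap and Selp against Con were lost without Con 2, Con 3, DSS+UA 1 or DSS+UA 3 (0.0671 to 0.141). The median was -0.56 with the position covariate and -0.59 against Con 1 alone. The 4 that remained raised became 0 with the position covariate or against Con 1 alone, 1 without Con 2, Con 3, DSS+UA 1 or DSS+UA 3 and 2 without Con 1. The 5 that were lower than both groups became 1 without DSS+UA 3, 2 without DSS+UA 1 or DSS+UA 2, with the position covariate or against Con 1 alone and 3 without Con 2, Con 3, DSS 2 or DSS 3, and the 6 that were back became 1 against Con 1 alone, 2 without DSS+UA 3 and 3 without DSS+UA 2.

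Of the other genes that differed from both groups, Il1r1, the signalling receptor for interleukin 1 (chr1:40225080-40317257), measured 38.1, 45 and 45.6 CPM in the Con libraries, 106, 127 and 143 in DSS and 29.9, 22.2 and 26.8 in DSS+UA. It was raised by DSS (1.55) and fell below Con in DSS+UA (log2 fold change -0.71 ± 0.15 (SE), adjusted p = 0.0132), with no overlap between any groups. That last call was lost with the position covariate (adjusted p = 0.0632), against Con 1 alone (0.140) and without DSS+UA 3 (0.0518). Ntn4, a netrin of basement membranes, and Plscr2, a phospholipid scramblase, had log2 fold changes against Con of -2.53 ± 0.38 and -2.30 ± 0.33 (SE). Both passed the test against Con under every alternative tried for single genes. Their difference from DSS was not tried gene by gene under the alternatives. Lamb2, a laminin chain of vessels and muscle, measured 46.8, 23.9 and 38.3 CPM in the Con libraries, 34.1, 31.3 and 44.1 in DSS and 15.4, 15.8 and 13.2 in DSS+UA (log2 fold change -1.29 ± 0.23 (SE), adjusted p = 0.00685). Pcdh17, a protocadherin, Pcsk5, a proprotein convertase, and Arhgap24, a GTPase-activating protein, were lowered with log2 fold changes of -3.22, -2.67 and -2.24, with Con 1 the lowest Con library for each. Against Con 1 alone the adjusted p was 0.0660, 0.534 and 0.245, and Pcsk5 was also lost without Con 2, Con 3, DSS+UA 1 or DSS+UA 2 (0.0667 to 0.0765).

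The genes raised against both groups were changed less. Rac3, a small GTPase, measured 5.12, 5.82 and 5.88 CPM in the Con libraries, 9.81, 6.36 and 7.92 in DSS and 12.4, 22.8 and 15.9 in DSS+UA (log2 fold change 1.60 ± 0.27 (SE), adjusted p = 0.00573). BC025446 measured 14.8, 14.7 and 10.9 CPM in the Con libraries, 16.8, 17.4 and 15.7 in DSS and 29.2, 55.2 and 38 in DSS+UA (log2 fold change 1.60 ± 0.25 (SE), adjusted p = 0.00528). Both lay above all Con and DSS libraries, with DSS+UA 2 highest. Plac8, a cysteine-rich protein of epithelium and leukocytes, Acy1, an aminoacylase, and Gstp2, a glutathione transferase, were raised with log2 fold changes of 1.21, 1.20 and 1.25. Gstp2 shares 54.3% of its 50-base stretches with other genes, so its count is uncertain. Gstp2 and Plac8 lost their calls against Con without Con 2, Con 3, DSS+UA 2 or DSS+UA 3 (0.0510 to 0.110). Without DSS+UA 2 or DSS+UA 3, 0 genes were raised against both groups, so all genes of this paragraph and Tpi1 left the class. With only the libraries compared it held 5 raised genes.

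Among lymphoid and mast cells, T cell markers were raised in 6 of 15 members in DSS+UA and 11 in DSS (medians 1.73 and 2.30), and the 6 became 0 against Con 1 alone, 1 without Con 3 and 2 without Con 1, Con 2, DSS+UA 1 or DSS+UA 2 or with the position covariate. Ctla4, an inhibitory receptor of regulatory T cells, measured 0.569, 1.11 and 1.12 CPM in the Con libraries, 9.96, 21.4 and 12.4 in DSS and 6.37, 8.66 and 2.88 in DSS+UA (log2 fold change 2.67 ± 0.58 (SE), adjusted p = 0.0136). Mast cell proteases were high mainly in 1 library. Mcpt2, of mucosal mast cells, measured 0.0517, 0.111 and 0.214 CPM in the Con libraries, 3.7, 2.35 and 10.7 in DSS and 3.27, 42.1 and 3.99 in DSS+UA (log2 fold change 6.96 ± 1.35 (SE), adjusted p = 0.00992), so DSS+UA 2 was far above the others and DSS+UA 1 and DSS+UA 3 overlapped DSS. None of 12 B cell markers was called in DSS+UA. Their median was 1.77, and the summed markers were 145, 17.6 and 24.7 CPM in Con and 341, 80.2 and 196 CPM in DSS+UA, which overlap. Without Con 1, 11 of the 12 were raised (median 4.37), and DESeq2 called 4.

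**Figure D5:**
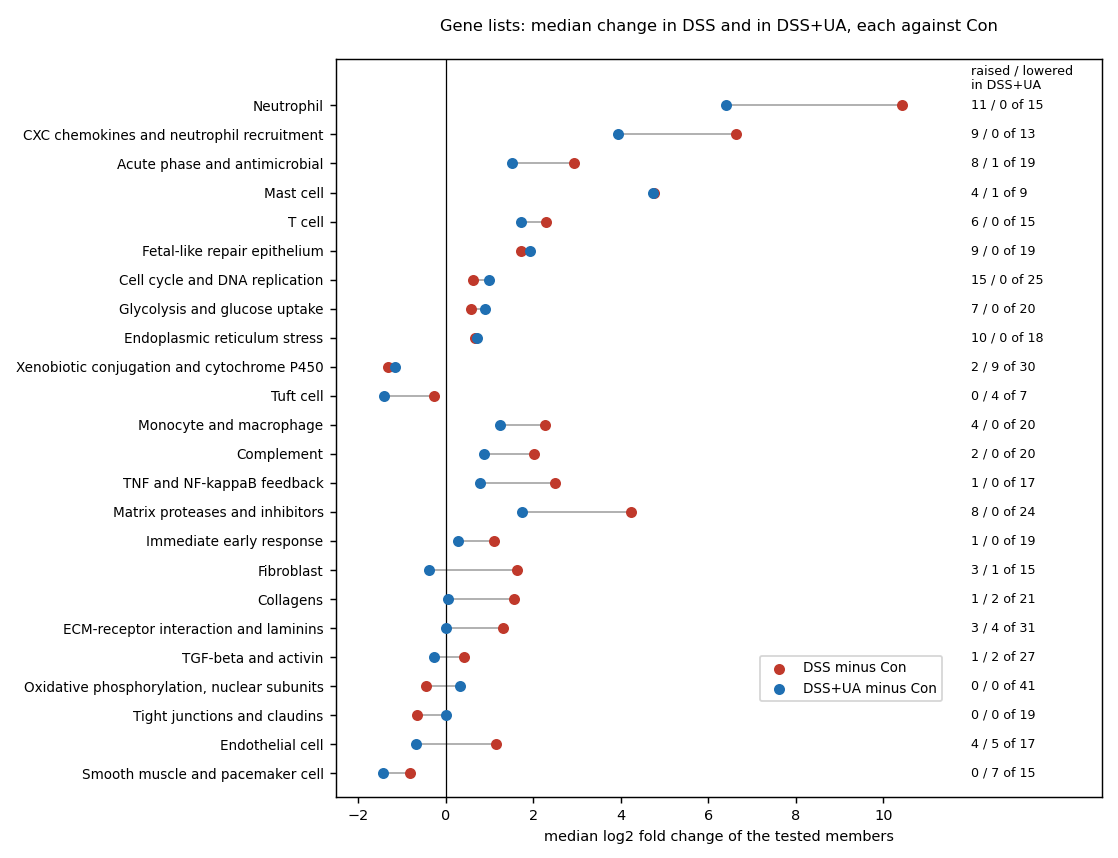
Median log2 fold change against Con of the tested members of 24 gene lists, in DSS (red) and in DSS+UA (blue), with the number raised and lowered in DSS+UA at the right. Red and blue lie close together for ER stress, cell cycle and xenobiotic genes, and blue lies near 0 for collagens, matrix and tight junctions. Blue lies on the other side of 0 from red for endothelial cells, fibroblasts, TGF-beta and activin, and oxidative phosphorylation. Medians have no test.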

How the data were processed

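Bulk RNA-seq of whole colon from 12 mice (Con, DSS, UA+DSS and DSS+UA, 3 each) was analysed from the deposited table of raw read counts per gene. Per the labels, the authors used TruSeq RNA libraries, which do not mark strand, FastQC, HISAT2, Cuffdiff and build GRCm38. The versions used and the counting tool were not given in the sources used here. Rows without a gene name (37, 0.0036% of counts) went through the filter with the rest.

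Genes passing edgeR's filterByExpr (17658) were tested in 1 fit of all 12 libraries with edgeR 4.0.16 (R 4.3.3), TMM factors, the robust quasi-likelihood test and Benjamini-Hochberg adjustment over all of them at 0.05. An adjusted p comes from this test unless an alternative or a left-out library is named with it. CPM values are TMM-normalised, and log2 fold changes carry standard errors. The script was tested on simulated data. Nothing says that the animals were littermates or handled in batches, and p-values measure the spread between 3 mice per group. Total counts over all 12 libraries were 15566216 to 19498383. Intervals and the floor of 3 counts cover counting error only, at a 95% level.

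The comparisons, members and gene lists were chosen with earlier results of these data known. Genes named for the size of their change had to code for protein and average at least 1 on the log2 CPM scale. They were the 8 raised and 8 lowered most against Con without overlap and the 6 and 6 changed most in DSS among those back. The 5 and 5 changed most among those different from both groups were added under the same limits. Up to 4 of each list by p and the cell type markers were named whatever their level. Other list members named were chosen after their values were seen. Some genes that meet the rule are not reported here. Of 1011 list symbols 5 matched by an older symbol and 2 did not match. Gene names, gene coordinates and shared 50-base stretches came from the GENCODE annotation and transcripts. Promoters came from a RefSeq GRCm38.p6 table. The position covariate, Con 1 alone, other normalisations, filters, DESeq2 1.42.0, limma-voom (limma 3.58.1) and leaving out each library were alternatives. The position score without single libraries was added after the data were seen.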

Additional observations from a re-analysis of the deposited data

How the results depend on the processing

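The 3193 genes that differed between DSS+UA and Con became 1412 with Con 1 alone, 2035 with only the libraries compared and 27 in a test against a 2-fold change, and ranged from 1062 to 4057 when 1 library was left out. The 1741 genes that remained became 1152 with no filter, 1043 with Con 1 alone and 1112 with only the libraries compared (693 to 1938 with 1 library left out). The 596 that were back became 1208 with DESeq2, 121 with the position covariate and 228 with only the libraries compared (17 to 731), and the 282 that differed from both groups became 794 with DESeq2, 140 with no filter, 48 with the position covariate, 85 with Con 1 alone and 71 with only the libraries compared (6 to 513). The 190 called members of the gene lists became 289 with DESeq2, 94 with the position covariate and 58 with Con 1 alone (88 to 275). The position score difference of 4.33 ranged from 2.71 to 6.98, an alternative chosen after seeing the data. Scaling moved the split: library size alone gave 39.9% raised and upper-quartile factors 38.8% (all-gene median -0.11), against 50.5%. Genes that remained were then 685 raised and 1041 lowered with upper-quartile factors, those back 505 and 53 with library size alone, and those different from both groups 23 and 183 with library size alone and 60 and 185 with upper-quartile factors. With Con 1 alone, B3gnt6 (log2 fold change 0.62, adjusted p = 0.777) and Pdk4 (0.19, adjusted p = 0.900) turned direction. Replicate numbers did not pair the samples (correlation of deviations between Con and DSS+UA 0.09, 0.16 and -0.12), and a replicate block gave 2920, 1637, 292, 132 and 181 in the order above. The list of Hox genes toward the rectum had no member left with at least 10 counts in every library.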

Other observations

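Interferon genes differed mainly by library. Of 24 type I interferon-stimulated genes 1 was lowered in DSS+UA, while 16 were lowered without Con 1 and 13 with DESeq2. Their summed level was 493, 2848 and 2236 CPM in Con and 420, 1056 and 767 CPM in DSS+UA, so that Con 1 lay among the DSS+UA libraries. None of 26 interferon gamma and antigen presentation genes was called, with a summed level of 6184 CPM in DSS+UA 2 against 1568 and 1604 CPM in the other DSS+UA libraries.

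Of 18 circadian clock genes 4 were lowered in DSS+UA, namely the repressors Nr1d1, Nr1d2 and Cry2 and the activator Rora, and the 4 became 0 without DSS+UA 3, 1 without Con 3 or DSS+UA 1 and 7 with DESeq2. Nr1d1 measured 82.8, 45.9 and 76.4 CPM in the Con libraries, 22.6, 15.9 and 20.1 in DSS and 17.5, 34.8 and 20.9 in DSS+UA. The time of day of tissue collection was not given in the sources. Tac1, the substance P precursor of enteric neurons, was the only raised member of 17 enteric neuron and glia markers and measured 12.4, 3.55 and 12.5 CPM in the Con libraries, 25.7, 37.6 and 27.4 in DSS and 53.2, 115 and 34.8 in DSS+UA. Its adjusted p was 0.0558 with the position covariate and 0.0685 against Con 1 alone. Among 24 epidermal growth factor, fibroblast growth factor and other repair genes, Fgf7, Fgf2, Igf1 and Wnt5a were back at the untreated level. These 4 became 0 without DSS+UA 3 or against Con 1 alone, 1 without DSS+UA 2 and 2 with the position covariate. All 27 genes of cholesterol and fatty acid synthesis missed the threshold in DSS+UA, with 24 of them above Con and a median log2 fold change of 0.48.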
